A study of Mus musculus with 80 samples.

Results

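The genes described here hold epithelial cells together or mark them. They are the cadherin gene Cdh1, the adhesion molecule gene Epcam, the claudin genes Cldn3, Cldn4, Cldn6 and Cldn7, the occludin gene Ocln, the desmoplakin gene Dsp, the protease inhibitor gene Spint2 and the trafficking gene Rab25. The 10 genes were chosen by name, out of 21887 protein-coding genes of the annotation used. Every peak of 40 peak lists that overlapped their mm10 bounds, extended by 10 kb on either side, was taken. That gave 435 peaks of 710560: 168 of H3K4me3, 120 of H3K27ac, 74 of H3K27me3, 71 of H3K18la and 2 of H3K9me3.

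The series follows mouse embryonic fibroblasts (MEFs) during chemical reprogramming to induced pluripotent stem cells (iPSCs) by CUT&Tag, in which an antibody directs a transposase to cut and tag DNA beside a histone mark. By their titles, 80 libraries were made, a pair per mark and stage, over 5 marks and 8 stages: MEFs (D0), cells in reprogramming medium sampled every 2 days from D2 to D12, and iPSCs. All cells descend from MEFs whose strain is labelled 129XOG2 (E13.5 embryos), so the OG2 background is shared by every stage, the controls included. The medium of the iPSCs held N2, B27, LIF, CHIR99021 and PD0325901 over a feeder layer whose source the labels do not name, whereas MEFs grew in DMEM with serum. The composition of the reprogramming medium is not given in the labels used here. One peak list was deposited for each mark and stage, so no spread between replicates exists and no test was made. In such bulk material, fewer cells carrying a mark and less mark per cell cannot be told apart.

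Cells of an epithelium are joined side by side by adherens junctions, built on cadherins that grip the same cadherin on the next cell, and by desmosomes, which anchor keratin filaments. Tight junctions, made of claudins and occludin, seal the space between the cells. Fibroblasts lack most of these proteins, and their appearance is a known step when fibroblasts are reprogrammed, called the mesenchymal-to-epithelial transition. H3K4me3 marks gene starts, H3K27ac marks active starts and enhancers, H3K27me3 is laid down by Polycomb complexes at silent genes, and H3K9me3 marks heterochromatin. H3K18la is a lactylation of histone H3 often found together with H3K27ac. A start carrying H3K4me3 together with H3K27me3 is called bivalent.

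Repressors of the Snail and Zeb families are known to bind the E-box CACCTG in the starts of epithelial genes, Cdh1 among them, so RefSeq promoter sequences (GRCm38.p6, 250 bases before to 50 after each start) were searched for it on both strands. Of the 10 genes, 9 matched the table, with 11 promoters. Cdh1 had no match and was not searched. At least 1 E-box lay in 10 of these 11 promoters and in all 9 matched genes, against 19.7% of all 21263 promoters and 22.1% of the 17492 genes searched. Counting once an E-box that lies in both overlapping promoters of Ocln, there were 17, and 7 promoters held more than 1, as did 2.80% of all promoters. Of 24 other junction genes in the table, 10 had an E-box. A match describes these letters in this window and is not a bound site. The promoters of 5 genes whose chromatin differed are shown 5′ to 3′ on the strand of the gene, with the E-boxes in capitals, as CACCTG or as its reverse complement. Dsp and Spint2 had 27 and 26 CG dinucleotides, Epcam 11, and Cldn4 and Rab25 9 each, while the lowest of the 11, that of the first Cldn7 start, had 7. The median over all promoters was 13.
Epcam (chr17:87635729-87636028, plus strand): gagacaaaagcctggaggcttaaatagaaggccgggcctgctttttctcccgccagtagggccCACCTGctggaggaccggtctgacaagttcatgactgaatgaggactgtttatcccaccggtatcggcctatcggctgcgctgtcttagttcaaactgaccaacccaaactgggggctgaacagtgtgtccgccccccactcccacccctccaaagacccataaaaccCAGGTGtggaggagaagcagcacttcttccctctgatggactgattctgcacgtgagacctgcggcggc
Cldn4 (chr5:134946885-134947184, minus strand): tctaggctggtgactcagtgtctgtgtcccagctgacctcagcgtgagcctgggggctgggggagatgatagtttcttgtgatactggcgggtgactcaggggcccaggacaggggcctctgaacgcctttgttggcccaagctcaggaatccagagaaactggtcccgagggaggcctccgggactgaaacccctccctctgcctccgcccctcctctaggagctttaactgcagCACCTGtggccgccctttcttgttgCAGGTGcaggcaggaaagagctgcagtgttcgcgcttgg
Dsp (chr13:38151044-38151343, plus strand): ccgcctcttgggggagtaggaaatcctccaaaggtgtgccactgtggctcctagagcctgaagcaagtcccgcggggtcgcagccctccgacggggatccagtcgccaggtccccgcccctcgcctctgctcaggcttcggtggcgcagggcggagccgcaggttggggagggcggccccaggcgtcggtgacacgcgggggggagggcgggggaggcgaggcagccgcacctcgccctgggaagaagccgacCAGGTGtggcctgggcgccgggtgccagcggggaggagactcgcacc
Spint2 (chr7:29281928-29282227, minus strand): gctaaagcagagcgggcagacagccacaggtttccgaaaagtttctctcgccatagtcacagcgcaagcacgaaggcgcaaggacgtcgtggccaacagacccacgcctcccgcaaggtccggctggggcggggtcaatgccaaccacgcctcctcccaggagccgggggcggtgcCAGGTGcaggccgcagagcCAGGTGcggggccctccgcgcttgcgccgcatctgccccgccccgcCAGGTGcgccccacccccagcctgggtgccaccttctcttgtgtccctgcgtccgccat
Rab25 (chr3:88548230-88548529, minus strand): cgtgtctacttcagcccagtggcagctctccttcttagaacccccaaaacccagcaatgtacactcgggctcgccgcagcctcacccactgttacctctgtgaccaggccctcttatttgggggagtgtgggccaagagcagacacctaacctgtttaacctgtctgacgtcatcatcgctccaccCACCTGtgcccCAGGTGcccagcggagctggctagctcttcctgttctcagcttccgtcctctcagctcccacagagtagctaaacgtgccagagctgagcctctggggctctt
The E-boxes of Epcam lay 187 and 19 bases before the start, that of Dsp 4 bases after it, and those of Rab25 64 and 53 bases before it. Those of Spint2 lay 74, 55 and 9 bases before the start, and those of Cldn4 14 bases before and 12 after. No E-box of these promoters overlapped another motif searched. The Sp1-type GC box GGGCGG was in 8 of the 9 genes (49.2% of all genes), the grainyhead motif AACCNGTT in 1, Rab25 (2.27%), the AP-1 motif TGANTCA in 1, Cldn4 (8.12%), the TEAD motif GGAATG in 2 (15.5%), CCAAT in 1 (42.3%) and TATAAA in 0 (14.8%).

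A peak was counted at a gene end when it overlapped, by at least 1 base, the 1 kb on either side of the end that H3K4me3 marks in any list, or of both ends where that did not tell them apart. H3K27me3 covered the ends of most of the junction genes in MEFs. It was not called from D8 to D12 at the 5 longest (Cdh1, Ocln, Dsp, Spint2 and Epcam, the shortest of them 15.1 kb). Each of these 5 was counted at 1 end. The 4 claudin genes were counted at both, which covers most or all of genes of 1.3 to 3.1 kb. Of these, Cldn6 had H3K27me3 at D8 and D12 only by peaks that lie over Cldn9, and Cldn4 had no call at D10. Whether gene length had a part was not tested. H3K27ac was called at more of the 10 genes from D8 to D12 than before, up to 8 at D10. Under the alternatives described below, it was at 3 to 6 genes at D2, 3 to 6 at D8 and 6 to 9 at D10. The 8 stages from D0 to iPSC had H3K27me3 at 9, 8, 8, 8, 4, 2, 4 and 6 of the 10 genes. Over all 21887 genes the shares were 21.2%, 14.0%, 17.2%, 9.38%, 12.5%, 16.2%, 10.1% and 19.2%. H3K27ac was at 2, 4, 2, 3, 6, 8, 6 and 2 of the 10, beside 54.5%, 48.6%, 44.0%, 43.1%, 41.2%, 46.5%, 51.3% and 29.9% of all genes. H3K4me3 was at 7, 8, 7, 8, 8, 9, 9 and 8, beside 59.0%, 61.3%, 61.1%, 60.8%, 61.5%, 62.3%, 60.9% and 61.4%. H3K18la was at 2, 0, 1, 4, 2, 6, 3 and 4, beside 35.9%, 24.3%, 36.0%, 42.5%, 36.8%, 25.1%, 27.7% and 30.0%. H3K9me3 was at 0 of the 10 at every stage, beside 1.37%, 1.66%, 2.09%, 0.955%, 0.667%, 1.01%, 0.804% and 2.8%.

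Gene-end peaks of Cldn6 and Cldn7 that also lie over the ends of Cldn9 and Elp5 are in these counts. Without them, an alternative added after the data were seen, H3K27me3 was at 8, 7, 8, 7, 3, 2, 3 and 5 genes and H3K27ac at 2, 4, 2, 3, 5, 8, 6 and 2.

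**Figure D1:**
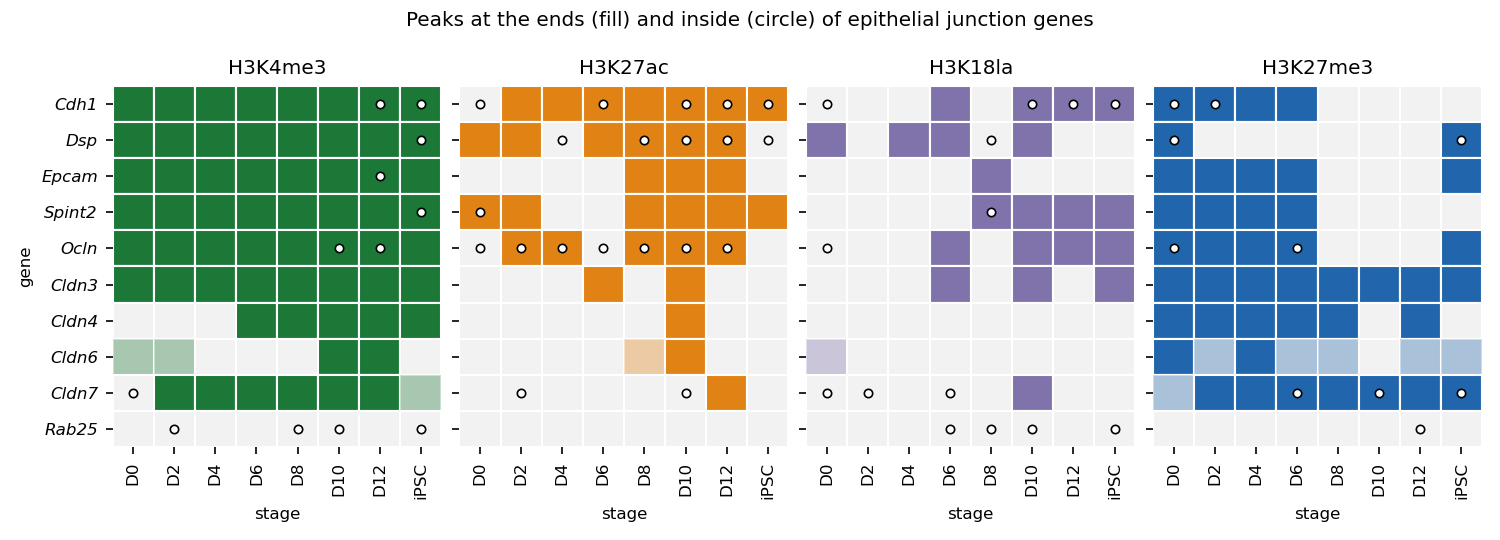
Peaks at the 10 genes (rows) by stage (columns) and mark (panels). A filled square is a peak at the gene end, a pale square a gene-end peak that also lies over the end of a neighbouring gene, and a circle a peak inside the gene away from its ends. H3K27me3 fills 9 rows at D0 and 2 at D10, and H3K27ac fills 2 rows at D0 and 8 at D10.

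Both marks were called at a different set of genes at D8 than at D6. H3K27me3 was at Cdh1, Epcam, Ocln and Spint2 at D6 and not at D8, and at no junction gene the other way. Over all genes, 2.81% were marked at D6 and not D8, which is 30.0% of those marked at D6, and 5.96% at D8 and not D6. H3K27ac was at Epcam, Ocln and Spint2 at D8 and not at D6, and at Cldn3 the other way. Cldn6 was counted at D8 too, by a peak that lies over Cldn9. The shares of all genes were 5.65% and 7.59%. The numbers for H3K27me3, 8 at D6 and 4 at D8, were 4 and 3 with only peaks of the authors' −log10 q-value of at least 5. They were 5 and 2 with a window of 0.5 kb and 8 and 2 with lists of equal length. Between D0 and D10, 6 genes were acetylated only at the later stage (3.42% of all genes) and 0 only at the earlier (11.5%).

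**Figure D2:**
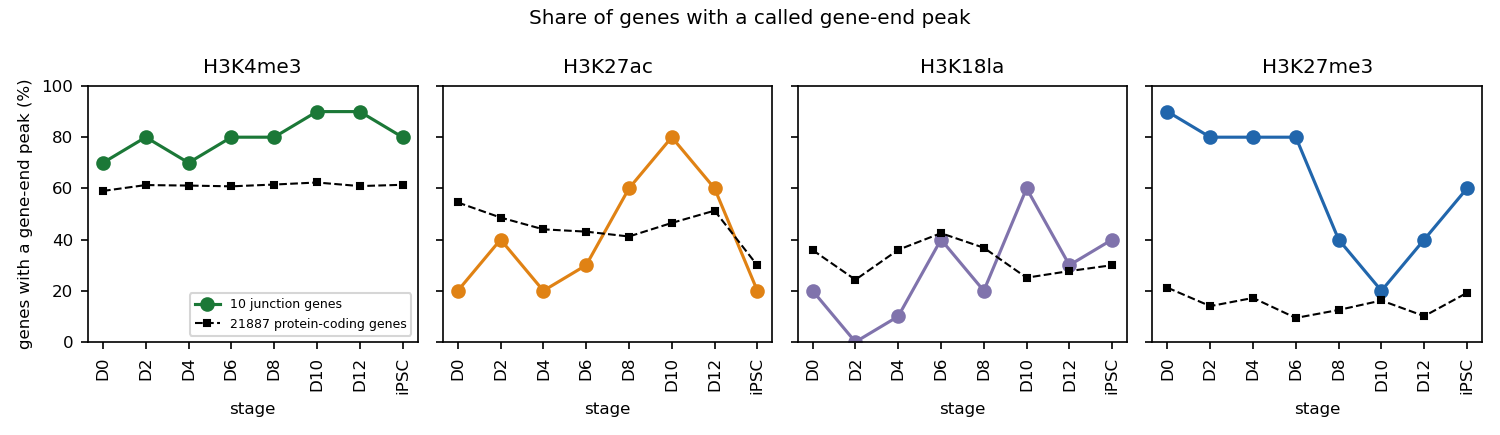
Share of genes with a gene-end peak (vertical axis, percent) by stage for the 10 junction genes (coloured) and all 21887 protein-coding genes (black, dashed), 1 list per point and so no error bars. For H3K27me3 the junction genes lie at 90% at D0 and 20% at D10, where all genes lie at 21.2% and 16.2%. Of all genes with H3K27me3 at D0, 45.9% had no call at D10, beside 7 of the 9 junction genes.

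Values are given below as fragments at the peak summit, solved from the fold enrichment and p-value that the authors' peak caller wrote for each peak. These are unnormalised. The caller's most common local background, a measure of depth, was 1.31 to 4.06 fragments over the 40 lists, and the lowest pileup it could call at that background was 8 to 15 fragments. At the gene-end peaks the local background was higher, with medians from 2.97 (Cdh1) to 5.40 (Cldn4) times that of the list. Values of different lists are therefore set side by side and no fold is drawn from them. The local background at a gene end also differed between stages, so a lower summit is not by itself a lower enrichment. The 95% exact Poisson intervals cover counting error only.

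Cdh1 (chromosome 8, 106603350 to 106670247) encodes E-cadherin, the cadherin of epithelial adherens junctions. Its start was taken as the end marked by H3K4me3, which was called there at all 8 stages. The summit held 35 fragments at D0 (95% interval 24.4 to 48.7), then 117, 74, 68 and 190 from D2 to D8. It held 379 at D10 (342 to 419), 366 at D12 and 111 in iPSCs. In these unnormalised counts D10 and D12 stood highest and D0 lowest, while the list backgrounds lay between 1.96 and 4.06 fragments. The local background at this start differed more, with 5.01 fragments at D0, 47.9 at D10 and 48.8 at D12. The authors' fold enrichment over it was 5.99, 9.28, 7.51, 7.54, 9.45, 7.77, 7.37 and 4.94 from D0 to iPSC, highest at D8 and lowest in iPSCs. H3K27me3 lay over the same bases from D0 to D6, with 284, 102, 84 and 33 fragments, and was not called from D8 on. Its fold enrichment at those 4 stages was 3.48, 3.30, 3.56 and 3.21. H3K27ac was called from D2 on, with 22, 17, 20, 31, 80, 91 and 36 fragments from D2 to iPSC. At D2, D4 and D6 the acetylated peak therefore overlapped both H3K4me3 and H3K27me3. H3K18la was at the start at D6, D10, D12 and in iPSCs, with 24 to 38 fragments.

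Inside Cdh1, the recurrent peaks lay away from the start. A region 16.7 kb into the gene (106619424 to 106620460) had H3K27ac at D0, D6, D10 and D12, with 68, 32, 56 and 64 fragments, and H3K4me3 in iPSCs. It was thus acetylated in MEFs, where the start of the gene was not. A region at 29.6 kb (106632411 to 106633461) had H3K4me3 at D12 and in iPSCs, and H3K27ac and H3K18la in iPSCs. Beyond the far end of the gene, 74.8 kb from its start, 106677607 to 106678540 had H3K27ac at D0, D8, D10 and D12 and H3K4me3 at D10 and D12. At every stage 2 to 4 of the 10 genes had H3K27ac inside the gene and away from both ends: 3 at D0, 4 at D10 and 2 in iPSCs, beside 27.6%, 22.7% and 18.5% of all genes.

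**Figure D3:**
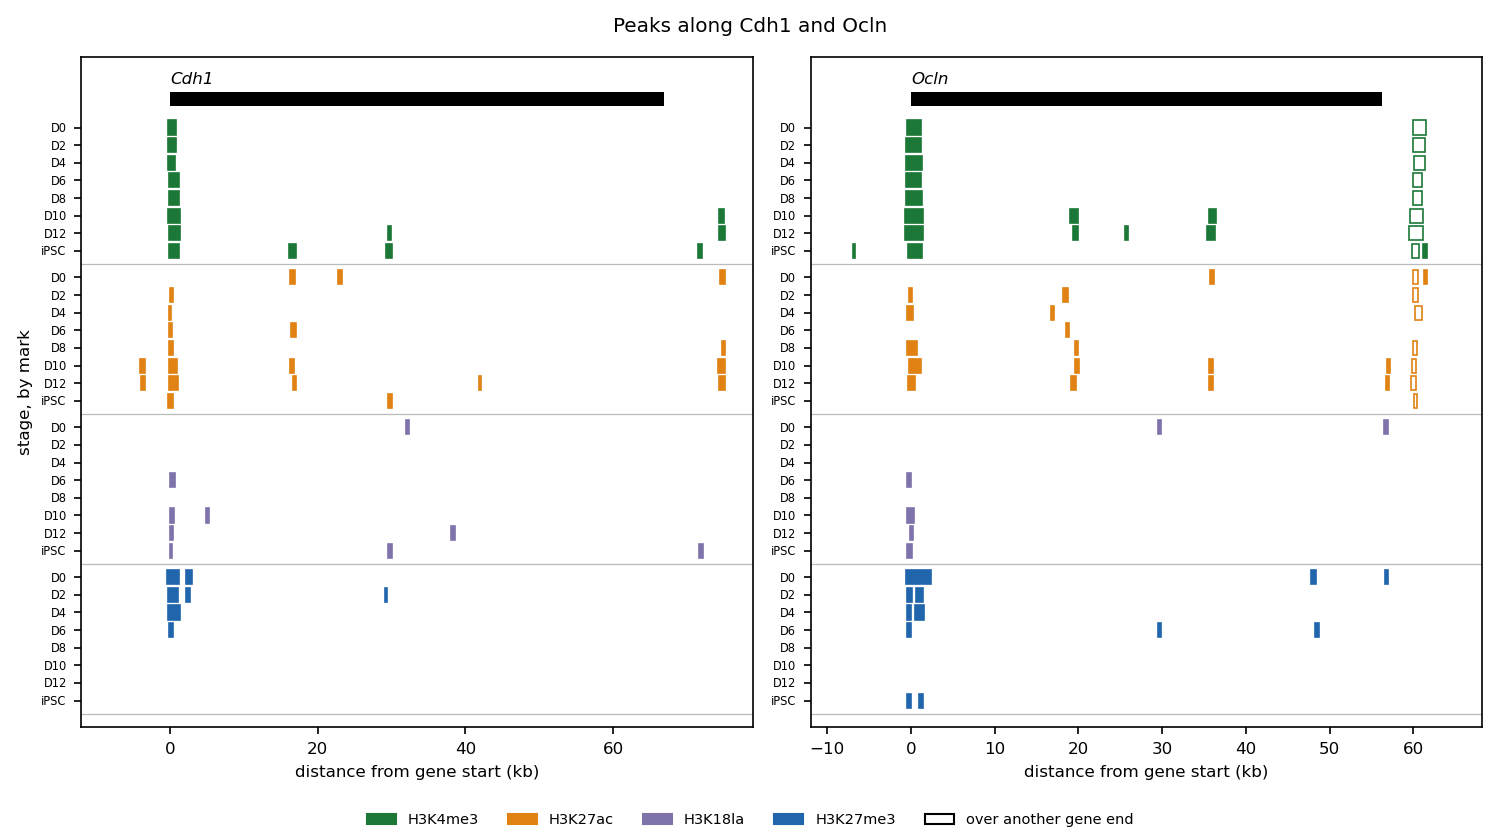
Peaks along Cdh1 and Ocln by distance from the gene start in kb (horizontal axis), 1 row per stage from D0 to iPSC within each mark (colours), with the black bar as the gene. Open boxes lie over the end of another gene. H3K27me3 sits at both starts from D0 to D6, and both genes carry acetylated regions inside or beyond the gene.

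Epcam (chromosome 17, 87635979 to 87651127) encodes an epithelial cell adhesion molecule that is also a surface marker of mouse pluripotent cells. H3K4me3 was at its start at all 8 stages, with 43, 145, 105, 81, 199, 237, 217 and 58 fragments from D0 to iPSC. H3K27me3 overlapped it from D0 to D6, with 197, 76, 52 and 28 fragments, and again in iPSCs with 33. H3K27ac was at the start only at D8, D10 and D12, with 34, 35 and 45 fragments, which were the 3 stages with H3K4me3 and no H3K27me3. No stage had H3K27ac and H3K27me3 there together. The D10 H3K4me3 peak was 3060 bases wide and the other 7 were 979 to 1897. Almost no mark was called elsewhere in the extended bounds of Epcam: 1 intragenic H3K4me3 peak at D12 and 1 H3K27ac peak 10.1 kb before the start at D4.

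Dsp (chromosome 13, 38151294 to 38198577) encodes desmoplakin, which ties desmosomes to keratin filaments. It was the 1 gene of the 10 with H3K27me3 at D0 and not at D2. H3K27me3 was at its start at D0 with 167 fragments and in iPSCs with 58, and at none of the 6 stages between. H3K4me3 was present throughout, with 91, 401, 241, 278, 288, 284, 217 and 53 fragments. H3K27ac was at the gene end at D0, D2, D6, D8, D10 and D12, with 18 to 48 fragments, and at D4 a peak of 24 fragments lay just outside the window, 1.2 kb into the gene. A region 5.9 kb before the start (38145111 to 38145721) had H3K4me3 from D2 to D12 and H3K27ac at D10, and one 19.6 kb inside (38170668 to 38171082) had H3K27ac at D8, D10 and in iPSCs. In iPSCs, 44 kb into the gene, H3K4me3 (16 fragments) and H3K27me3 (56) were called together.

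Spint2 (chromosome 7, 29256330 to 29282059) encodes an inhibitor of membrane serine proteases that act at the epithelial surface, matriptase among them. H3K4me3 was at its start throughout, with 134, 196, 134, 117, 285, 336, 289 and 79 fragments. H3K27me3 overlapped it at D0, D2, D4 and D6, with 108, 53, 64 and 29 fragments, and at no later stage. H3K27ac was called at D0, D2, D8, D10, D12 and in iPSCs, with 21, 19, 39, 78, 58 and 31 fragments. H3K18la was called from D8 to iPSC, with 21, 27, 35 and 33 fragments, at the stages where H3K27ac was called too. Cdh1 and Spint2 were the only genes of the 10 with H3K27ac at the gene end in iPSCs, and neither had H3K27me3 there.

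Ocln (chromosome 13, 100496504 to 100552718) encodes occludin, a membrane protein of tight junctions. H3K4me3 was at its start throughout, with 84, 206, 159, 197, 278, 316, 284 and 77 fragments. H3K27me3 covered 2974 bases there at D0, with 205 fragments, lay in 2 peaks at D2 and at D4, and had 33 fragments at D6. It was not called at D8, D10 or D12, and was back in iPSCs as 2 peaks with 61 and 48 fragments. H3K27ac was at the start at D2, D4, D8, D10 and D12, with 24, 28, 33, 57 and 53 fragments. H3K18la was there at D6, D10, D12 and in iPSCs. Inside the gene, a region at 19.6 kb (100532613 to 100533763) had H3K27ac at D8, D10 and D12 and H3K4me3 at D10 and D12, and one at 35.8 kb (100516267 to 100517392) had H3K27ac at D0, D10 and D12 and H3K4me3 at D10 and D12. The gene-end calls of Cdh1 and Ocln were equal in 37 of the 40 lists.

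**Figure D4:**
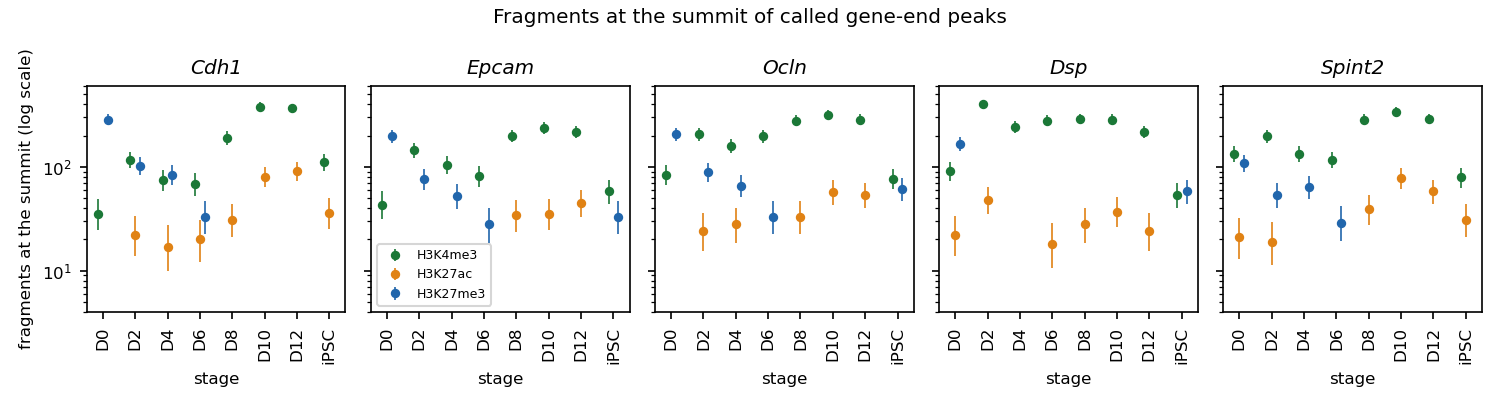
Fragments at the summit (vertical axis, log scale) of the called gene-end peaks of Cdh1, Epcam, Ocln, Dsp and Spint2 by stage, with 95% exact Poisson intervals. Values are not normalised between lists or to the local background. The highest peak is drawn where a stage has several, and no point means no call. H3K27me3 (blue) is last called at D6 for Cdh1 and Spint2, and is called again in iPSCs for Epcam, Ocln and Dsp after stages with no call, and H3K4me3 (green) is called at all 8 stages.

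Of the claudin genes, Cldn3 and Cldn7 had H3K27me3 at all 8 stages. Cldn3 (chromosome 5, 134986214 to 134987476) encodes a sealing claudin of simple epithelia. Its highest H3K27me3 peaks held 279, 96, 78, 37, 35, 53, 31 and 44 fragments from D0 to iPSC. Their local background differed as well, with 82.3 fragments at D0 and 9.84 at D6. The authors' fold enrichment over it was 3.36, 3.29, 3.08, 3.51, 2.61, 3.10, 2.65 and 3.58. H3K4me3 was called at all 8 stages, with 28, 66, 68, 69, 97, 114, 87 and 61 fragments. The D0 peak of H3K27me3 was 3607 bases wide, more than the whole gene. H3K27ac was there at D6 and D10 only, with 21 and 33 fragments, in both cases over H3K4me3 and H3K27me3. H3K18la was called at D6, D10 and in iPSCs.

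Cldn4 (chromosome 5, 134945123 to 134946934), on the minus strand next to Cldn3, encodes a claudin of many tight epithelia. It was the 1 gene of the 10 that had no H3K4me3 at D0, D2 or D4 and had it at every stage from D6 on, with 25, 104, 177, 170 and 95 fragments. H3K27me3 was there from D0 to D8 and at D12, with 150, 58, 52, 24, 21 and 19 fragments. H3K27ac was at the gene end only at D10, with 67 fragments. D10 and iPSC were the 2 stages without H3K27me3 there. A region 4.5 kb before the start (134951020 to 134952167) had H3K27ac at D8 and D10, H3K18la at D8 and H3K4me3 at D10, D12 and in iPSCs.

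Cldn7 (chromosome 11, 69964779 to 69967886) encodes a claudin that also binds Epcam. Its highest H3K27me3 gene-end peaks held 270, 83, 78, 27, 30, 26, 29 and 40 fragments. H3K4me3 was called there from D2 on, with 62, 66, 86, 106, 198, 146 and 50 fragments. The D0 peak of 44 fragments lay 1.6 kb into the gene, over bases that the later peaks covered too, but outside the window. Cldn7 has a second annotated start (69965421), and counted from the annotated starts H3K4me3 was called at all 8 stages. H3K27ac was at the gene end at D12 with 21 fragments, and inside the gene at D2 and D10 with 25 and 46. These peaks overlapped each other, and only that of D12 reached the window. The D0 H3K27me3 peak and the iPSC H3K4me3 peak also reached the end of Elp5, which begins 337 bases beyond Cldn7.

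Cldn6 (chromosome 17, 23679348 to 23682446) encodes a claudin of embryonic epithelia. Its far end lies 137 bases from Cldn9, so peaks there cannot be given to either gene. At its own start it had H3K27me3 at D0 and D4 with 135 and 71 fragments, H3K4me3 at D10 and D12 with 120 and 122, and H3K27ac at D10 with 45. No mark was called at its own start in iPSCs. The peaks over Cldn9 were H3K27me3 at D0, D2, D4, D6, D8, D12 and in iPSCs, H3K4me3 at D0 and D2, H3K27ac at D8 and H3K18la at D0. Of its 51 peaks, 46 lay over the end of another gene, and only the own-start peaks listed above were left at its ends when such peaks were removed, an alternative added after the data were seen.

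Rab25 (chromosome 3, 88542029 to 88548279) encodes a small GTPase of epithelial vesicle recycling. With the 1 kb window, it was the 1 gene of the 10 with no gene-end peak of any mark at any stage. That pattern was shared with 4187 of 19848 other genes, those with a gene symbol that is not a clone or model name and over 100 kb from the 10. Just outside the window, a region 1.2 kb into the gene (88546825 to 88547226) had H3K4me3 at D10 and H3K18la at D8. Under the alternatives described below, H3K4me3 at D10 was at up to 10 of the 10 genes. Also within the gene, a region 3.2 kb from the start (88544699 to 88545434) had H3K4me3 at D2, D8 and in iPSCs, H3K18la at D6, D10 and in iPSCs and H3K27me3 at D12. A region 11.5 kb from the start (88536214 to 88537309), beyond its far end and inside the bounds of Mex3a, had H3K4me3 at D8, D10, D12 and in iPSCs, with 175, 205, 211 and 113 fragments. It also had H3K27ac at D0, D10 and D12 and H3K18la at D0, D6, D8, D10 and D12. Of the 63 peaks of Rab25, 40 lay over the ends of Mex3a, Lamtor2 or Ubqln4.

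**Figure D5:**
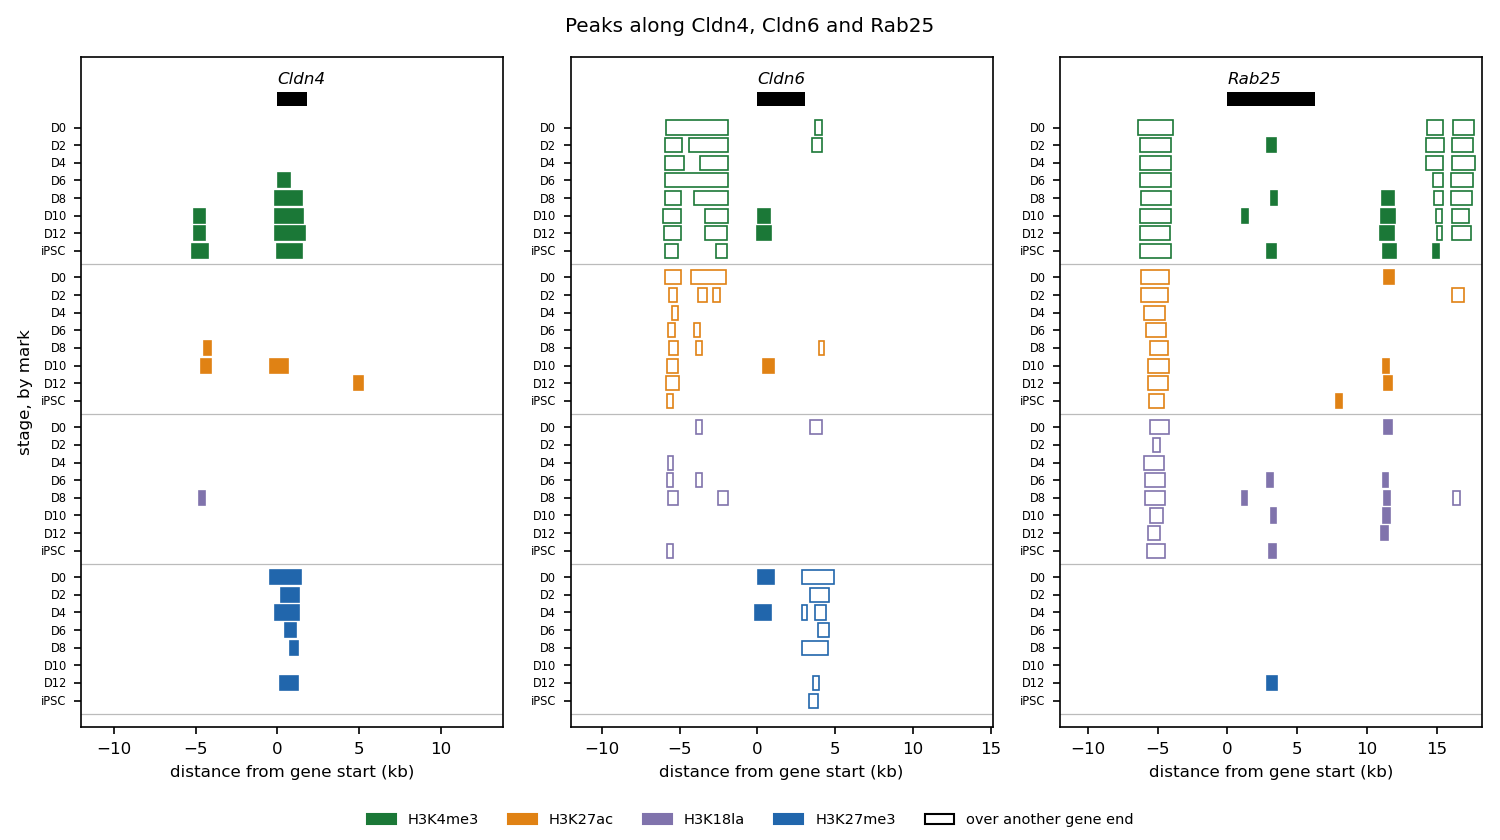
Peaks along Cldn4, Cldn6 and Rab25 by distance from the gene start in kb (horizontal axis), 1 row per stage within each mark (colours), with the black bar as the gene and open boxes for peaks over the end of another gene. Cldn4 shows H3K4me3 from D6 on, most peaks around Cldn6 are open, and no peak lies within 1 kb of the start of Rab25.

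H3K4me3 and H3K27me3 peaks overlapped at the gene end, here called bivalent, in 7, 7, 6, 6, 3, 2, 3 and 5 of the 10 genes from D0 to iPSC. Over all genes such shared bases were found in 14.6%, 10.3%, 14.1%, 7.15%, 8.95%, 12.6%, 7.47% and 15.1%. The D0 and D2 counts include Cldn6 by peaks over Cldn9. Overlap of peaks called from bulk cells does not tell if both marks lay in the same cells. Cdh1, Epcam, Cldn3, Ocln and Spint2 were bivalent at each of D0, D2, D4 and D6. Of those, Cldn3 alone was so at D8, D10 and D12, and Epcam, Cldn3 and Ocln were so in iPSCs, with Cldn7 and Dsp. Of 58 H3K27me3 gene-end peaks of the 10 genes, 43 overlapped H3K4me3 (72.8% over all genes). Of 33 H3K27ac gene-end peaks, 11 overlapped H3K27me3 (12.7% over all genes): 3 at Cdh1, 2 each at Cldn3, Ocln and Spint2, 1 at Dsp, and 1 at the Cldn6 end shared with Cldn9. Of 22 H3K18la gene-end peaks, 17 overlapped H3K27ac (83.4% over all genes).

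The step from D12 to iPSC left fewer genes acetylated. H3K27ac was at Epcam, Cldn7, Ocln and Dsp at D12 and not in iPSCs, and at none of the 10 the other way, beside 23.3% and 1.84% of all genes. The Cldn7 call at D12 rests on the window. Of all genes acetylated at D12, 45.4% had no call in iPSCs, beside 4 of the 6 junction genes. H3K27me3 was at Epcam, Ocln and Dsp in iPSCs and not at D12 (11.8% of all genes), and at Cldn4 the other way (2.71%). From D0 to iPSC, H3K27me3 was no longer called at Cdh1, Cldn4 and Spint2 (8.6% of all genes), and newly at none (6.59%). That was 3 of the 9 junction genes marked at D0, where 40.5% of all genes marked at D0 had no call in iPSCs. From D0 to D12, H3K27me3 was no longer called at Cdh1, Epcam, Ocln, Dsp and Spint2 (14.1%), and newly at none (3.01%). Of all genes marked at D0, 66.4% had no call at D12, beside 5 of those 9.

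The same 3 steps were read for the other marks and for H3K27ac from D0. From D0 to D12, H3K27ac was newly called at Cdh1, Epcam, Cldn7 and Ocln (4.9% of all genes) and was missing at no gene that had it (8.09%). At Cldn7 this rests on the window, as the D2 and D10 peaks overlap the D12 peak but lie just outside the window. From D0 to iPSC H3K27ac was newly called at Cdh1 (2.01%) and no longer at Dsp (26.6%). H3K4me3 was newly called at Cldn4 and Cldn7 from D0 to D12 (3.81%) and was missing at no gene that had it (1.95%). At Cldn7 this rests on the window, as its D0 peak lies just outside it. From D0 to iPSC it was newly called at Cldn4 and Cldn7 too (4.95%) and no longer (2.6%) at Cldn6, whose D0 peak lies over Cldn9. From D12 to iPSC it was newly called at none (3.57%) and no longer at Cldn6 (3.07%). H3K18la was newly called at Cdh1, Ocln and Spint2 from D0 to D12 (5.7%) and no longer at Dsp (13.9%), nor at the Cldn6 end shared with Cldn9. From D0 to iPSC it was newly called at Cdh1, Cldn3, Ocln and Spint2 (7.47%) and no longer at Dsp (13.4%), with the same peak over Cldn9. From D12 to iPSC it was newly called at Cldn3 (11.2%) and missing at no gene that had it (8.92%). H3K9me3 was called at none of the 10 in any of these lists. Over all genes it was newly called in 0.393%, 2.38% and 2.36% from D0 to D12, D0 to iPSC and D12 to iPSC, and no longer in 0.959%, 0.955% and 0.361%.

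A wider list of 43 junction, polarity and membrane protease genes, which excludes the 10, was read in the same lists. It holds Cldn9, and 12 peaks at the end that Cldn9 shares with Cldn6 enter both sets. H3K27me3 was at 26, 19, 24, 13, 8, 13, 8 and 17 of the 43 genes from D0 to iPSC, and H3K27ac at 19, 16, 12, 17, 21, 23, 25 and 13. In percent, H3K27me3 was at 60.5, 44.2, 55.8, 30.2, 18.6, 30.2, 18.6 and 39.5, above the share of all genes given above at each stage. H3K27ac was at 44.2, 37.2, 27.9, 39.5, 48.8, 53.5, 58.1 and 30.2, below that of all genes from D0 to D6 and above it from D8 on, with 30.2% beside 29.9% in iPSCs. The 8 desmosome genes had H3K27me3 at 8, 6, 7, 5, 3, 4, 4 and 5 from D0 to iPSC, beside the shares of all genes given above. The 3 at D8 were Pkp1, Pkp2 and Pkp3, which encode plakophilins. H3K27ac was at 2, 1, 2, 3, 4, 3, 4 and 2 of these 8 genes from D0 to iPSC, and at Pkp1, Pkp3 and Ppl at no stage. The desmosomal cadherin genes Dsg2 and Dsc2 had it at each stage from D4 to iPSC, and Dsc2 at D0 as well. The 9 adherens genes, such as the catenin gene Ctnna1, had H3K27me3 at 0 to 2 and H3K27ac at 3 to 6 at any stage. The 6 polarity genes had H3K27me3 at 3, 1, 3, 0, 0, 0, 0 and 1 and H3K27ac at 4, 3, 2, 3, 3, 6, 5 and 2 from D0 to iPSC. Crb3 and Llgl2 among them had H3K27me3 at D0 and D4 and H3K27ac at D10 and D12. Pard3, Pard6b, Patj and Prkci had H3K27ac at D0 already, and Pard3 and Prkci had no H3K27me3 at any stage. St14 (matriptase), Spint1 (an inhibitor related to Spint2) and Prss8 (prostasin) had H3K27me3 from D0 to D6, and it was also called at Spint1 at D8 and D10 and at St14 in iPSCs. Hpn, of the same list of 4 genes, had no H3K27me3 at any stage. The 16 tight junction genes had H3K27me3 at 12, 8, 9, 5, 4, 7, 3 and 9 from D0 to iPSC.

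Genes outside the 10 whose gene-end calls were most like theirs over the 40 lists were found by counting equal calls. For Cdh1 these were Dsg2 and Gpr160, with 37 equal calls, where the median over those 19848 genes was 26. For Epcam they were Cby3 and Lrmda with 38 (median 25), for Ocln Lrp2 with 37 (27), for Dsp Arhgap6 with 38 (29) and for Spint2 L1td1 with 37 (27). The 40 lists are not independent, so these counts are a description.

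Marker genes of other cell types were read in the same lists, and some of their counts differed between the stages. The share of all genes with H3K27ac differed too, with 54.5%, 48.6%, 44.0%, 43.1%, 41.2%, 46.5%, 51.3% and 29.9% from D0 to iPSC. From D0 to iPSC, H3K27ac was at 4, 4, 3, 3, 1, 1, 2 and 0 of 6 fibroblast genes, and at 4, 4, 3, 4, 3, 3, 3 and 3 of the mesenchymal genes Cdh2, Cdh11, Vim and Fn1. It was at 0, 2, 0, 0, 1, 2, 4 and 4 of 6 pluripotency genes and not at Nanog at any stage. Of 4 keratin genes of simple epithelia it was at 0, 0, 1, 1, 1, 3, 2 and 0, of 5 trophoblast genes at 0, 1, 0, 0, 0, 1, 2 and 0, and of 4 skin epithelium genes at 0 at every stage. H3K27ac at the junction genes was most frequent at D10, and the part of other cell types in it was not tested.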

How the data were processed

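Titles gave the mark and stage of the 80 CUT&Tag libraries. Per the submitters' processing notes, the build was mm10 and the tools were MACS2 2.1.2, deepTools 3.4.3, fastp 0.20.1 and Bowtie2 2.2.5. The authors deposited 40 peak lists, 1 per mark and stage. No source used here says if both libraries entered a list, or if a control did. The H3K18la list of D2 may hold 1 library, as its peak names end in a library number. Each deposited peak carries the caller's score, a fold enrichment (ratio to the local background), a −log10 p-value and a −log10 q-value. These are the authors' values per peak. No listed peak had a p-value above 1e-05.

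Peaks on unplaced sequences or the mitochondrion, 3092 of 713652, were left out. Summit pileup and local background were solved from the fold (pseudocount 1) and p-value to within 0.01 in −log10 p, and all peaks of the 10 genes were solved. Gene bounds and promoters came from RefSeq (GRCm38.p6). Overlaps were computed in Python 3.11.15 with pandas 2.3.3, NumPy 2.4.6 and SciPy 1.17.1, and tested on simulated data. The list depths, as the most common local background, ran from 1.31 to 4.06 fragments. Alternatives were the window (0.5 and 2.5 kb), both ends, the annotated start, a −log10 q-value of at least 5, lists of equal length, the summit inside the window and the extension (5 and 20 kb). The genes and lists were chosen with earlier results of these data known. One marker list is not reported here. All 10 genes are named. For likeness, the genes with the most equal calls were named.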

Additional observations from a re-analysis of the deposited data

How the results depend on the processing

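The net number of the 10 genes gaining (or, if negative, losing) a gene-end peak was recomputed for 3 steps and 5 marks under 8 alternatives, which gave 120 values, and 94 of them stayed within 1.5 times the reported number. H3K27ac from D0 to D12 (4) and H3K27me3 from D0 to iPSC (-3) stayed so under all 8 alternatives. The 120 values include those of H3K9me3, which was called at 0 of the 10 genes in the main setting and had little room to move. For H3K4me3, the 2 from D0 to D12 was 1 with a 2.5 kb window and -1 with the summit in the window, the 1 from D0 to iPSC was 2 with a 0.5 kb window and 0 with the summit, and the -1 from D12 to iPSC was 0 with 2.5 kb, 1 with the summit and -2 without peaks over another gene's end. For H3K27ac, the 0 from D0 to iPSC was 1 with 0.5 kb and 2 with lists of equal length, and the -4 from D12 to iPSC was -2 with equal length. For H3K18la, the 1 from D0 to D12 was 0 with 2.5 kb and with both ends, 2 with 0.5 kb and without peaks over another gene's end, and 3 with equal length and with the summit. Its 2 from D0 to iPSC was 1 with 2.5 kb, both ends or a −log10 q-value of at least 5, and 4 with the summit, and its 1 from D12 to iPSC was 0 with that q-value and -1 with equal length. For H3K27me3, the -5 from D0 to D12 was -3 with the summit, and the 2 from D12 to iPSC was 0. For H3K9me3, both ends gave -1 from D0 to D12 and from D0 to iPSC, where the main value was 0. The cause of these shifts was not tested. The choice without peaks over another gene's end was made after the data were seen. No paired analysis was possible because 1 list was deposited for each mark and stage, which also left no replicate to leave out. The number of genes with a gene-end peak, per mark and stage, stayed within 1.5 times in 292 of 320 recomputed values, again with H3K9me3 among them. With a 0.5 kb window the number of genes was 1 for H3K27ac at D0, 3 for H3K27ac at D8, 1, 0 and 1 for H3K18la at D0, D4 and D8, and 5 and 2 for H3K27me3 at D6 and D8. With lists of equal length it was 0 and 1 for H3K27ac at D0 and D6, 0, 1, 0 and 2 for H3K18la at D0, D6, D8 and in iPSCs, and 2, 1 and 2 for H3K27me3 at D8, D10 and D12. With the q-value of at least 5 it was 1 for H3K27ac at D6, 3 for H3K18la at D10, and 4 and 2 for H3K27me3 at D6 and D12. With the summit it was 0, 0 and 1 for H3K18la at D0, D4 and D8. A 2.5 kb window gave 1 and 5 for H3K18la at D2 and D8, the annotated start gave 1 for H3K18la at D2, both ends gave 1 for H3K9me3 at D0, and leaving out peaks over another gene's end gave 1 for H3K18la at D0. Depth limits the calls: an absent peak means fewer than about 8 to 15 fragments at the list's common background, and more where the local background was higher.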
